A study of Mus musculus with 6 samples.

Results

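Chemokine ligands are the small secreted proteins that direct the movement of leukocytes and other cells, and 37 protein-coding genes for them were found among the 53342 genes of the count table made from mouse dental pulp. They were chosen by symbol alone, as protein-coding genes named *Ccl*, *Cxcl*, *Cx3cl* or *Xcl* with a number and at most 1 further letter, a rule that uses no measured value, although earlier results of these data were known when the set was proposed. The set held 23 CC, 12 CXC, 1 CX3C and 1 C ligands. *Cxcl11* was left out because the table types it as a polymorphic pseudogene, and *Pf4* and *Ppbp*, which encode CXC ligands under other symbols, were read beside the set and not in it.

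RNA sequencing compared the pulp of 3-month-old wild-type (WT) C57BL/6 mice with that of C57BL/6 mice lacking *Mmp13* in every cell (*Mmp13-/-*), to learn which genes change when this collagenase is missing from the tooth. Each genotype had 3 samples described as independent biological samples, numbered 2, 4 and 5 in WT pulp and 1, 2 and 6 in *Mmp13-/-*, and no treatment is listed for either. Titles of the WT samples name molars, those of the *Mmp13-/-* samples name no tooth, and the study's methods name incisors. The tooth type is therefore not settled here for either genotype. *Mmp13* itself, read first as a check of the labels, had 1069, 1139 and 827 estimated counts in WT pulp (samples 2, 4, 5), while *Mmp13-/-* pulp had 10.2, 32.9 and 40.4 (samples 1, 2, 6).

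Chemokines bind G protein-coupled receptors on the cells that they attract. Inflammatory ligands such as those of the *Ccl2* and *Cxcl1* groups are made on demand and draw monocytes and neutrophils out of the blood, while homeostatic ligands such as *Cxcl12* and the *Ccl19* and *Ccl21* group are made steadily by stromal cells and position resident cells. Ligands are held on matrix proteoglycans, cleared by atypical receptors and trimmed by proteases, among them the matrix metalloproteinase family to which MMP13 belongs.

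Libraries held between 21561420 and 29980236 counts, and ligands took 0.0145% to 0.0227% of them. The *Mmp13-/-* libraries stood apart from the WT libraries in ways that reach many genes. The rate of counts per kilobase of exon at 1409 genes for odorant or vomeronasal receptors, which pulp is not known to use, was 0.0970 to 0.118 across WT pulp and 1.5, 1.76 and 4.80 across *Mmp13-/-* samples 1, 2 and 6. This rate is called background below. A single repeat-rich gene, *Gm10800*, took 6.88% and 30.5% of the counts of *Mmp13-/-* samples 2 and 6. Median log2 fold changes fell from 0.80 in the tenth of genes with the lowest GC content to -1.12 in the tenth with the highest. Results on ligands are therefore also given after a GC correction or a subtraction of the background where either one changed the sign or a call over 2-fold. Other shifts in size are not all given in the text. Skeletal muscle markers summed to 40870 to 48500 CPM (counts scaled to library size) in WT pulp and 7440 to 17990 CPM in *Mmp13-/-*, so that muscle RNA was present in all samples and differed between the genotypes.

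Of the 37 ligands, 24 had enough counts to be tested, with 14 CC, 9 CXC and the CX3C ligand among them. Of these, 6 CC ligands were higher in *Mmp13-/-* pulp at an adjusted p under 0.05 and more than 2-fold, namely *Ccl2*, *Ccl6*, *Ccl8*, *Ccl9*, *Ccl24* and *Ccl28*, beside 20.4% of all 24534 genes tested, which is a share near that of the ligands. By the same edgeR test 0 were called lower, beside 9.68% of all genes. At an unadjusted p under 0.05 the number lower by more than 2-fold was also 0, and at an adjusted p it was 0 by DESeq2 (9.4% of all genes) and 0 by limma (11.5%). At any fold *Cx3cl1* and *Cxcl14* were lower, beside 24.3% of all genes, the 6 named CC ligands were the ones higher, beside 27.3%, and 16 ligands did not pass. The *Mmp13-/-* samples lay above every WT sample for 9 ligands and below for 4, beside 31.8% and 29.1% of all genes. Median log2 fold change was 0.31 over the 24 ligands, 0.82 over the CC and 0.11 over the CXC ligands, and 0.10 over all genes.

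**Figure D1:**
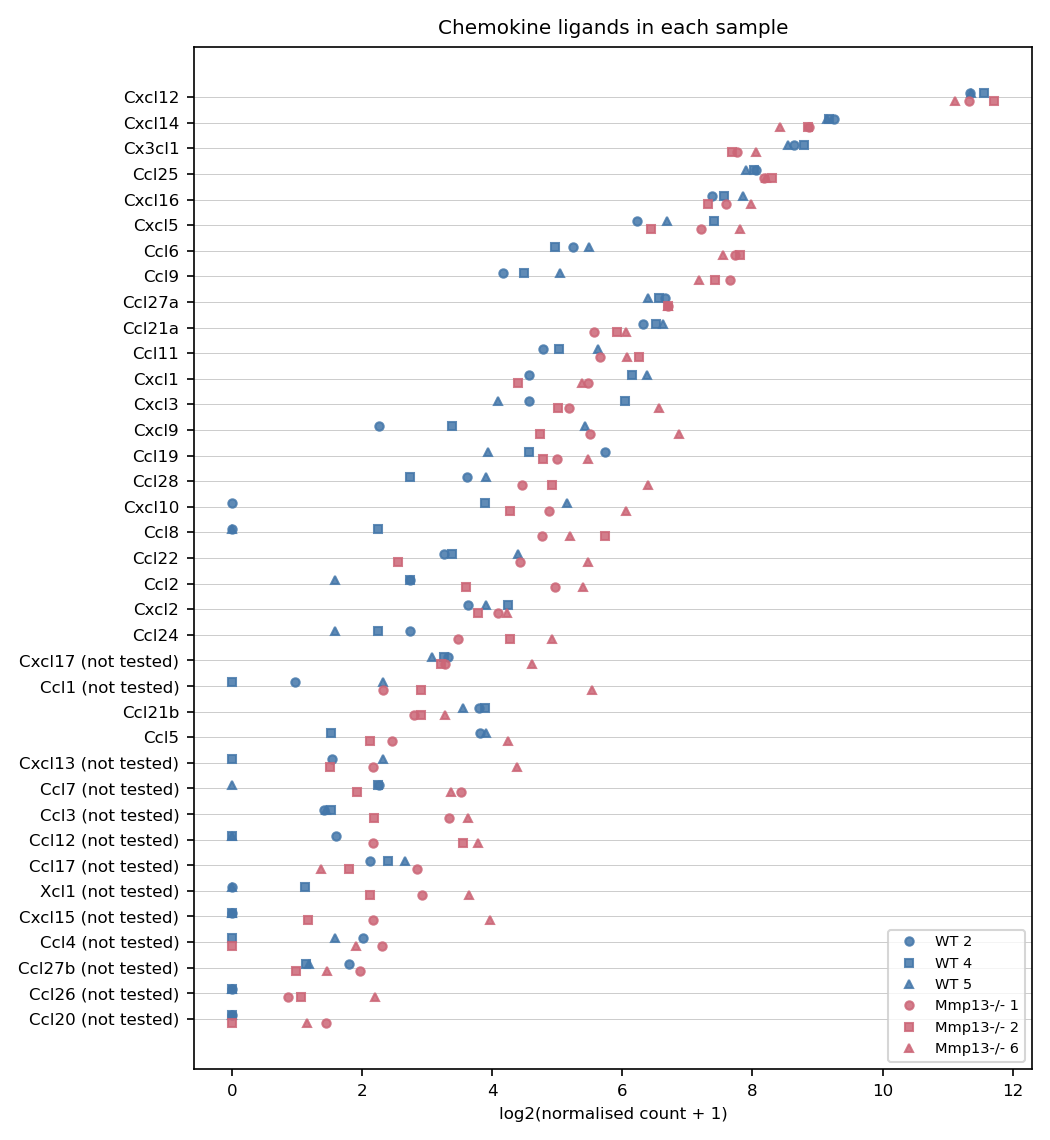
Normalised counts of all 37 chemokine ligands on a log2 scale after adding 1, with 3 WT samples in blue and 3 *Mmp13-/-* samples in red, ordered by mean level. *Cxcl12* is the highest in all 6 samples, and *Ccl6* and *Ccl9* show the *Mmp13-/-* samples far to the right of the WT samples.

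The clearest difference was that of *Ccl6* and *Ccl9*, which bind the receptor Ccr1. *Ccl6* (ENSMUSG00000018927) and *Ccl9* (ENSMUSG00000019122) are rodent CC ligands made by myeloid cells and lie side by side on chromosome 11, and their promoters are printed because both rose together and because a motif search could be read against them. Those of *Ccl8*, which rose most, *Cx3cl1*, which was lower, and *Cxcl12*, the highest ligand and without a detected difference, are given for contrast. Each sequence is RefSeq's for GRCm38.p6, 250 bases before to 50 after the annotated start, 5′ to 3′ on the gene's strand, in lower case with motif matches in capitals.
Ccl6 promoter, chr11:83593038-83593337, minus strand: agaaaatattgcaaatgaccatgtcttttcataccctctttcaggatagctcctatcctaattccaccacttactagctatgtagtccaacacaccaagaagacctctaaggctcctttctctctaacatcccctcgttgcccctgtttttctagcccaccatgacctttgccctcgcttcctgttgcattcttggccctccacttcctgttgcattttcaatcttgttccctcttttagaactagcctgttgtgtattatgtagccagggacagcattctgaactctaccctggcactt
Ccl9 promoter, chr11:83578587-83578886, minus strand: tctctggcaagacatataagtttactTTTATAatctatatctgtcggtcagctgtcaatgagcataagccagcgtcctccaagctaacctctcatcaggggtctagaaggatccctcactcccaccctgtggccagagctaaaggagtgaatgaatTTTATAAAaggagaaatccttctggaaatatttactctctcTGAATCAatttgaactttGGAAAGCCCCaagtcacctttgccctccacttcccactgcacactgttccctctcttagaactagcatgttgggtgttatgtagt
Ccl8 promoter, chr11:82114935-82115234, plus strand: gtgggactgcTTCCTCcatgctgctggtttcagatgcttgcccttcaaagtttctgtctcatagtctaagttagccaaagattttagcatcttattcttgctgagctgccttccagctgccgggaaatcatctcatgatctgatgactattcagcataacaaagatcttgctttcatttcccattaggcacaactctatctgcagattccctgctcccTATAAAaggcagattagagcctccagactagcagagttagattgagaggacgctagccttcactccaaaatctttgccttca
Cx3cl1 promoter, chr8:94771930-94772229, plus strand: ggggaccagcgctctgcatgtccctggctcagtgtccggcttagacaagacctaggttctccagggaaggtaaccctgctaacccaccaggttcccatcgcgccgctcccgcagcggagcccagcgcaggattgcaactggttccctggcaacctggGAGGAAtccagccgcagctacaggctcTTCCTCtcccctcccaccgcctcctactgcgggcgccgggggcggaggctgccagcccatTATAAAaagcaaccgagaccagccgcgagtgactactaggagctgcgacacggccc
Cxcl12 promoter, chr6:117168285-117168584, plus strand: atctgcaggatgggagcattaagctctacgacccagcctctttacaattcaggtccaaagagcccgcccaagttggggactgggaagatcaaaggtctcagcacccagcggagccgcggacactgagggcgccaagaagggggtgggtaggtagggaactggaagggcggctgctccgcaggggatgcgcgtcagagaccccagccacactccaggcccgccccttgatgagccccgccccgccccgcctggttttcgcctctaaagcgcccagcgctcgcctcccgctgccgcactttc

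On both strands of these windows 5 motifs were searched. They were the TATA box (TATAAA), a core of the myeloid factor PU.1 (GAGGAA), the AP-1 site (TGANTCA, where N is any base), the NF-kB site (GGG, any 2 bases, TTTCC) and the interferon response element (GAAA, any 2 bases, GAAA). The table gave 33 windows for 27 of the 37 ligands, and *Ccl2* and *Ccl24* had no entry. The NF-kB letters stood in 15.2% of the ligand windows and in 1.63% of all 32851 windows, in *Ccl9*, *Ccl20*, *Cxcl1*, *Cxcl2* and *Cxcl3*. AP-1 letters stood in 21.2% of ligand windows against 7.81%, TATA letters in 30.3% against 13.6%, PU.1 letters in 39.4% against 28.3%, and interferon element letters in 9.09% against 3.44%. Overlapping windows of a ligand were counted separately, so the same PU.1 letters of *Ccl27a*, and of *Ccl27b*, were counted more than once. By ligand, TATA and PU.1 letters each stood in 10 of the 27, AP-1 letters in 6, NF-kB letters in 5 and interferon element letters in 3.

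*Ccl9* held 5 matches, with a TATA match at position -224 from the start, a pair of overlapping ones at -94 and -92, an AP-1 match at -53 and an NF-kB match at -35. *Ccl8* held a TATA match at -32 and a PU.1 match at -240, while *Cx3cl1* held a TATA match at -6 and PU.1 matches at -93 and -66. The windows of *Ccl6* and *Cxcl12* held none of the 5. *Ccl6* and *Ccl9* nonetheless shared a stretch of 50 bases with 38 identical, the second most alike of 351 pairs of ligands, together with *Cxcl2* and *Cxcl3* at the same 38, below only the duplicated *Ccl27a* and *Ccl27b*, and against a median of 26. Of the NF-kB bearing ligands, *Ccl9* was called higher and *Cxcl1*, *Cxcl2* and *Cxcl3* were not, and *Ccl20* was not tested.

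*Ccl6* had normalised counts of 37.0, 30.1 and 43.9 in the WT samples and 212, 224 and 186 in the *Mmp13-/-* samples. A normalised count is the count divided by the library size scaled with TMM factors and brought to the mean library. All 3 *Mmp13-/-* samples were far above the WT samples, with means of 207 ± 19.0 and 37.0 ± 6.90 (SD, n = 3 each). The log2 fold change was 2.49 with a standard error (SE) of 0.22 and an adjusted p of 6.55e-05 by the quasi-likelihood test of edgeR after Benjamini-Hochberg adjustment over all genes, which stands behind each adjusted p below unless another test is named.

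*Ccl9* had normalised counts of 17.0, 21.4 and 32.0 in WT pulp and 200, 172 and 144 in *Mmp13-/-* samples. Here too the genotypes did not overlap, and the log2 fold change was 2.87 (SE 0.29, adjusted p = 9.9e-05). In *Mmp13-/-* samples 1, 2 and 6 the *Ccl6* counts were 90.3, 77.6 and 13.7 times the background expected for its exon length and the *Ccl9* counts 50.2, 35.1 and 6.22 times. Both were called in each of the other fits, with the smallest values after background subtraction and GC correction together, at 2.29 for *Ccl6* and 2.31 for *Ccl9*. Dental pulp is a mixed tissue, and more cells of a type cannot be told apart from more RNA per cell in these or the following results.

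The other CC ligands lying near *Ccl6* on chromosome 11 were near the limit of detection. *Ccl5*, a T cell product, had 13.1, 1.88 and 13.9 normalised counts in WT pulp and 4.48, 3.36 and 17.9 in *Mmp13-/-* samples, and the genotypes overlapped (log2 fold change -0.30, SE 0.86, adjusted p = 0.79). *Ccl3*, a macrophage product, had 1.74 to 2 counts in WT pulp and 3.86 to 10.5 in *Mmp13-/-* samples and was not tested. Its pooled ratio was 3.98 with a 95% interval of 1.57 to 12.0 that covers counting error only, and its counts in *Mmp13-/-* samples were 1.95 to 9.12 times the background. *Ccl4* had 0 to 3.20 counts in WT pulp and 0 to 4.56 in *Mmp13-/-* samples.

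*Ccl8* and *Ccl2*, which lie in the group of genes around *Ccl2*, also stood higher, at low counts. *Ccl8* (ENSMUSG00000009185), which in the mouse binds Ccr8, had normalised counts of 0, 3.76 and 0 in WT pulp and 26.1, 52.4 and 35.8 in *Mmp13-/-* samples, so that in WT it was seen in 1 sample alone. Its log2 fold change was 4.78 (SE 0.90, adjusted p = 0.0019), and in *Mmp13-/-* samples the counts were 9.23 to 63.9 times the background. With so few WT counts, the size of this fold change is loosely set, while the adjusted p stayed at or under 0.0062 with any one sample left out.

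*Ccl2* (ENSMUSG00000035385), the main ligand of Ccr2 on inflammatory monocytes, had normalised counts of 5.67, 5.65 and 2 in WT pulp and 30.3, 11.1 and 41.0 in *Mmp13-/-* samples. The genotypes did not overlap, though the *Mmp13-/-* samples spread widely (27.4 ± 15.1 against 4.44 ± 2.11, SD, n = 3 each). The log2 fold change was 2.57 (SE 0.68, adjusted p = 0.0101), and it remained called with each sample left out. *Ccl2* counts of the *Mmp13-/-* samples were 20.4, 6.06 and 4.74 times the background.

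*Ccl7* and *Ccl12*, the neighbours of *Ccl2* that share its receptor, had too few counts to test. *Ccl7* had 4, 4 and 0 counts in WT pulp and 12, 3.03 and 5.89 in *Mmp13-/-* samples, which overlap. *Ccl12* had 2.14, 0 and 0 counts in WT pulp and 4.05, 11.7 and 8.07 in *Mmp13-/-* samples, which do not, and its pooled ratio was 13.0 with a 95% counting interval of 3.24 to 114, at 3.13 to 12.4 times the background in *Mmp13-/-* samples. *Ccl1*, at the far end of the same gene group and a ligand of Ccr8, had 1.02, 0 and 4 counts in WT pulp and 4.63, 7.09 and 28.5 in *Mmp13-/-* samples, at 1.30, 1.70 and 2.51 times the background.

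**Figure D2:**
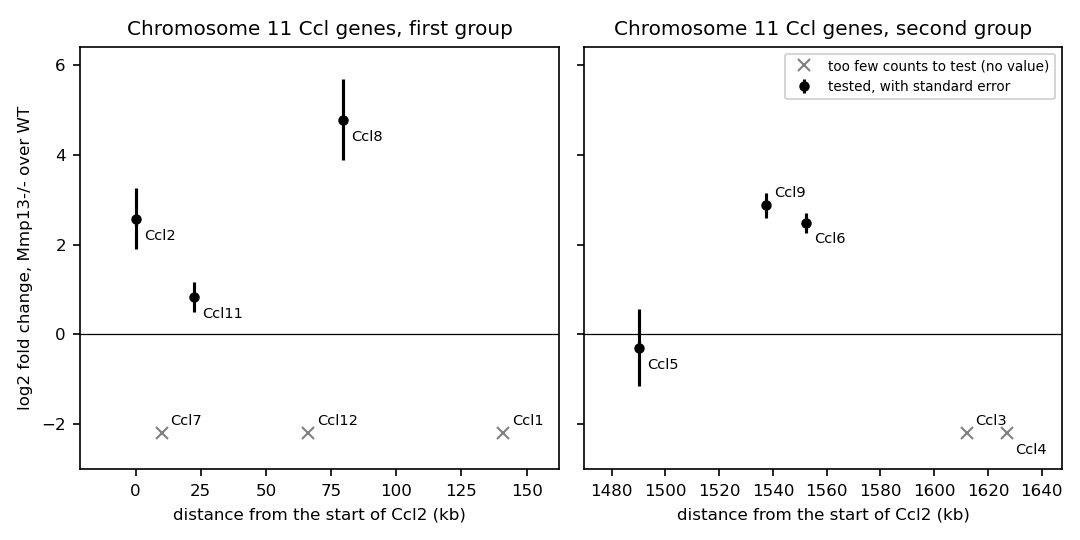
Log2 fold change with its standard error of the 11 *Ccl* genes on chromosome 11 against distance in kilobases from the start of *Ccl2*, in the group around *Ccl2* at left and the group around *Ccl6* at right. *Ccl2*, *Ccl8*, *Ccl9* and *Ccl6* lie well above 0, *Ccl5* lies near 0, and crosses mark the 5 genes with too few counts, which have no value.

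On chromosome 11, in a pair of neighbouring groups, lie 11 of the CC ligands. Of these 6 were tested and 4 were called higher, beside 20.4% of all genes, with a median log2 fold change of 2.53, and their summed level rose from 3.66 to 5.41 CPM in WT samples to 20.2 to 20.9 CPM in *Mmp13-/-* samples, without overlap. By contrast the 8 *Cxcl* genes grouped on chromosome 5 had 6 tested members and none called higher or lower, beside 20.4% and 9.68% of all genes, and the genotypes overlapped for each of the 6. At no called ligand of chromosome 11 did more than 3.98% of its 31-base words occur elsewhere in the transcripts, so that these counts are little exposed to shared reads.

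Eosinophil-attracting ligands of Ccr3, the eotaxins, were divided. *Ccl24* (ENSMUSG00000004814) had normalised counts of 5.67, 3.76 and 2 in WT pulp and 10.1, 18.4 and 29.1 in *Mmp13-/-* samples, with every *Mmp13-/-* sample above the WT samples (log2 fold change 2.25, SE 0.66, adjusted p = 0.0170). The adjusted p missed the threshold without WT replicate 4 (0.0825), WT replicate 5 (0.0983) or *Mmp13-/-* replicate 2 (0.0623), while the log2 fold changes were 2.21, 1.89 and 2.21. The counts were 5.99, 8.85 and 2.96 times the background in *Mmp13-/-* samples 1, 2 and 6. *Ccl11*, the eotaxin made by stromal cells, had 26.4, 31.6 and 48.6 in WT pulp and 49.5, 75.5 and 66.4 in *Mmp13-/-* samples.

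All 3 *Mmp13-/-* values of *Ccl11* were above those of WT, but by little, and the log2 fold change of 0.84 (SE 0.34) missed the threshold (adjusted p = 0.0604). It passed at an adjusted p of 0.0342 with upper-quartile factors, 0.0335 with unscaled totals and 0.0310 with at least 10 counts in every sample. It also passed after background subtraction (0.0435) and without WT replicate 5 (0.0448). After the GC correction the change was 0.35 (adjusted p = 0.474). *Ccl26* was at 0 in WT pulp and had 0.935 to 2.25 counts in *Mmp13-/-* samples, which is under a floor of 3 counts, so that no fold is given.

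Ligands of mucosa and skin came next. *Ccl28* (ENSMUSG00000074715), an epithelial ligand of Ccr10 and Ccr3, had normalised counts of 11.2, 5.65 and 14 in WT pulp and 21.0, 29.2 and 83.2 in *Mmp13-/-* samples, and the genotypes did not overlap (log2 fold change 2.07, SE 0.62, adjusted p = 0.0183). Its counts in *Mmp13-/-* samples were only 3.33, 3.76 and 2.26 times the background, and the call was lost after background subtraction (adjusted p = 0.0516), after the GC correction (0.124), and without WT replicate 4 (0.0736), with log2 fold changes of 1.60, 1.51 and 1.74. *Ccl28* has a low GC content of 40.8%, in the tenth of genes with the highest median log2 fold change.

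*Ccl25*, the thymic and intestinal ligand of Ccr9, had normalised counts of 264, 260 and 237 in WT pulp and 290, 315 and 294 in *Mmp13-/-* samples. The genotypes stood apart by a small margin, with a log2 fold change of 0.24 (SE 0.15, adjusted p = 0.196), and the sign turned to -0.65 (adjusted p = 0.0133) after the GC correction. *Ccl27a*, the keratinocyte ligand of Ccr10, had 99.9, 93.2 and 82.7 in WT pulp and 104, 103 and 103 in *Mmp13-/-* samples, with a log2 fold change of 0.16 (SE 0.20, adjusted p = 0.535) that became 1.08 (adjusted p = 0.0056) after the GC correction.

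For *Ccl27a* 57.0% of the 31-base words occur in other genes, and for its copy *Ccl27b* all do, so both counts are uncertain. *Ccl27b* had 1.27 to 2.62 counts in WT pulp and 1.08 to 3.33 in *Mmp13-/-* samples. *Ccl20*, which draws cells bearing Ccr6, was at 0 in WT samples and had 0 to 2 counts in *Mmp13-/-* samples, below the floor.

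No lymphoid ligand of Ccr7 passed the test. *Ccl21a*, made by lymphatic endothelium, had normalised counts of 78.6, 90.8 and 97.4 in WT pulp and 46.2, 59.4 and 65.7 in *Mmp13-/-* samples, all of the latter below the WT samples. Its log2 fold change of -0.65 (SE 0.25) missed the threshold at an adjusted p of 0.0501, and the sign turned to 0.13 after the GC correction. The change passed by limma (adjusted p = 0.0385), with no filter (0.0422), and without WT replicate 2 (0.0375) or *Mmp13-/-* replicate 6 (0.0347). *Ccl21b* had 13.0, 13.9 and 10.7 in WT pulp and 5.95, 6.52 and 8.68 in *Mmp13-/-* samples, with a log2 fold change of -0.92 (SE 0.54, adjusted p = 0.184). After the GC correction the change of *Ccl21b* was -0.16 (adjusted p = 0.83).

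Transcripts of *Ccl21a* and *Ccl21b* share 80.6% and 100% of their 31-base words with other genes, as do 58.8% of those of *Ccl19*, so the split between them is uncertain. *Ccl19*, the second ligand of Ccr7, had 52.0, 22.8 and 14.4 in WT pulp and 31, 26.6 and 43.4 in *Mmp13-/-* samples, which overlap (log2 fold change 0.17, SE 0.50, adjusted p = 0.801). Its change was 1.03 after the GC correction (adjusted p = 0.182). *Cxcl13*, which guides B cells through Cxcr5, had 0 to 4 counts in WT pulp and 2 to 12.6 in *Mmp13-/-* samples and was not tested.

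Ligands of Ccr4, which attract regulatory and type 2 helper T cells, showed no difference that could be detected at this depth. *Ccl22* had normalised counts of 8.54, 9.41 and 20 in WT pulp and 20.6, 4.88 and 43.4 in *Mmp13-/-* samples (log2 fold change 0.80, SE 0.74, adjusted p = 0.393), and the lowest of the 6 was an *Mmp13-/-* sample. The change of *Ccl22* was 1.2 after the GC correction (adjusted p = 0.266) and 0.34 after background subtraction (adjusted p = 0.767). *Ccl17* had 3.55 to 5.36 counts in WT pulp and 1 to 7.12 in *Mmp13-/-* samples.

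The tested members of the set that attract neutrophils through Cxcr2, *Cxcl1*, *Cxcl2*, *Cxcl3* and *Cxcl5*, did not differ detectably. *Ppbp*, read beside the set, is given below. *Cxcl1* had normalised counts of 22.7, 69.6 and 81.9 in WT pulp and 43.4, 20.1 and 40.4 in *Mmp13-/-* samples, with the low WT sample inside the range of *Mmp13-/-* (log2 fold change -0.74, SE 0.49, adjusted p = 0.231). Without WT replicate 2, the lowest of the WT samples, *Cxcl1* was called lower, at -1.20 and an adjusted p of 0.0289, beside 11.2% of all genes.

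*Cxcl5* had 73.7, 170 and 102 in WT pulp and 147, 86.2 and 222 in *Mmp13-/-* samples (log2 fold change 0.38, SE 0.38, adjusted p = 0.420). *Cxcl2* had 11.3, 17.9 and 14 in WT pulp and 16.1, 12.8 and 17.7 in *Mmp13-/-* samples (0.11, SE 0.49, adjusted p = 0.873), and in *Mmp13-/-* sample 6 it lay close to background. *Cxcl3* had 22.7, 64.9 and 16.0 in WT pulp and 35.4, 31.3 and 93.5 in *Mmp13-/-* samples (0.59, SE 0.59, adjusted p = 0.423). In all of these the genotypes overlapped.

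*Cxcl15*, an epithelial neutrophil attractant, was at 0 in all 3 WT samples and had 4, 1.36 and 9.24 counts in *Mmp13-/-* samples. These counts were 1.25, 0.364 and 0.906 times the background, so no fold is given. *Ppbp*, the neutrophil-activating ligand of platelets that carries another symbol, had normalised counts of 170, 152 and 176 in WT pulp and 1176, 1081 and 783 in *Mmp13-/-* samples (log2 fold change 2.61, SE 0.18, adjusted p = 2.7e-05). *Pf4*, its companion in platelet granules, rose by 1.06 (SE 0.20, adjusted p = 0.00205), from 176 to 199 in WT to 279 to 456 in *Mmp13-/-* samples.

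Interferon-induced CXC ligands of Cxcr3 varied greatly within each genotype. *Cxcl9* had normalised counts of 3.78, 9.41 and 41.9 in WT pulp and 44.1, 25.6 and 116 in *Mmp13-/-* samples, and 1 WT sample lay inside the *Mmp13-/-* range. Its log2 fold change of 1.72 (SE 0.79) missed the threshold (adjusted p = 0.0917) but passed by DESeq2 (adjusted p = 0.0377) and by limma on the deposited log2 values (adjusted p = 0.0494). It also passed with unscaled totals (0.0016), with no filter (0.0024), and without WT replicate 5 (0.0079) or *Mmp13-/-* replicate 2 (0.0371). After the GC correction it did not (1.42, adjusted p = 0.243).

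*Cxcl10* had 0, 13.7 and 34.5 in WT pulp and 28.3, 18.3 and 65.2 in *Mmp13-/-* samples, which overlap (1.16, SE 0.93, adjusted p = 0.324). The pseudogene-typed *Cxcl11* was not called either (1.23, SE 0.63, adjusted p = 0.128). *Xcl1*, the single C ligand and a product of T and NK cells, had 0, 1.26 and 0 counts in WT pulp and 7.58, 3.65 and 7.24 in *Mmp13-/-* samples, a pooled ratio of 20.6 with a 95% counting interval of 3.28 to 857, at 2.89 to 9.64 times the background, and 18.7% of its exons overlap another gene.

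The steadily made ligands carried most of the ligand counts. *Cxcl12*, the stromal ligand of Cxcr4 and Ackr3, had normalised counts of 2595, 3005 and 2629 in WT pulp and 2565, 3349 and 2223 in *Mmp13-/-* samples, with the WT samples inside the *Mmp13-/-* range. Its log2 fold change was -0.02 (SE 0.18, adjusted p = 0.95), and it took 55.5% to 58.2% of ligand counts in WT pulp and 44.9% to 60.8% in *Mmp13-/-* samples. *Cxcl16*, the transmembrane ligand of Cxcr6, had 165, 188 and 231 in WT pulp and 191, 159 and 252 in *Mmp13-/-* samples (0.04, SE 0.22, adjusted p = 0.898), and 18.3% of its exons overlap a neighbouring gene.

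*Cx3cl1* (ENSMUSG00000031778), the membrane-bound ligand of Cx3cr1 on macrophages, had normalised counts of 396, 441 and 372 in WT pulp and 216, 204 and 265 in *Mmp13-/-* samples. Every *Mmp13-/-* sample was below the WT samples, with means of 228 ± 32.1 and 403 ± 35.0 (SD, n = 3 each), a log2 fold change of -0.83 (SE 0.16) and an adjusted p of 0.0023. *Cxcl14* (ENSMUSG00000021508), a ligand of epithelium and fibroblasts, had 607, 575 and 567 in WT pulp and 464, 464 and 341 in *Mmp13-/-* samples, also without overlap (-0.46, SE 0.16, adjusted p = 0.0322). *Cxcl14* did not pass with upper-quartile factors (adjusted p = 0.0883), unscaled totals (0.424), at least 10 counts in every sample (0.0821) or background subtraction (0.0698). Nor did it pass without WT replicate 2, 4 or 5 or *Mmp13-/-* replicate 6 (0.0507 to 0.0605).

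After the GC correction neither was lower, at 0.04 (adjusted p = 0.854) for *Cx3cl1* and 0.27 (adjusted p = 0.114) for *Cxcl14*. Their GC contents of 57.1% and 55.5% lie in the upper part of the GC range, where median log2 fold changes were lowest, and the 6 ligands called higher had a median of 44.7%. *Cxcl17*, a mucosal ligand, had 7.39 to 9.56 counts in WT pulp and 9.03 to 14.8 in *Mmp13-/-* samples and was not tested.

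**Figure D3:**
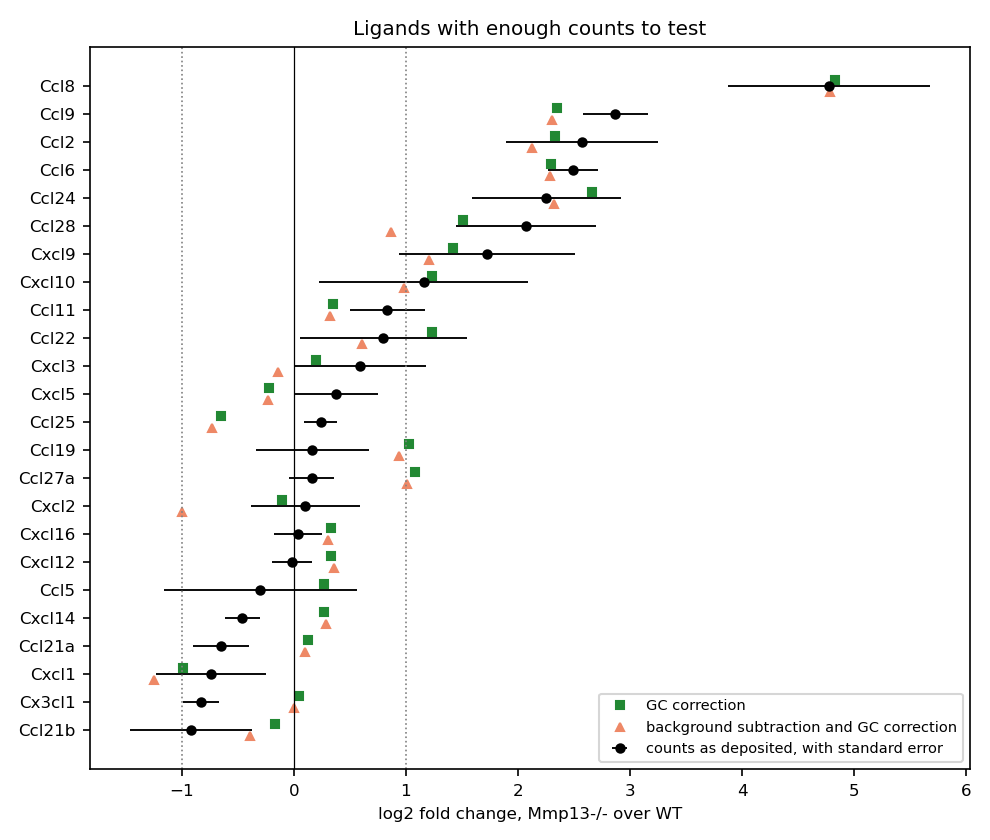
Log2 fold change of *Mmp13-/-* over WT for the 24 tested ligands, from the counts as deposited with standard errors (black circles), after the GC correction (green squares) and after background subtraction and GC correction (orange triangles; *Ccl5* has none), with dotted lines at a 2-fold change. *Ccl8*, *Ccl9*, *Ccl2*, *Ccl6* and *Ccl24* stay beyond 2-fold in all 3, while *Cx3cl1* and *Cxcl14* move from below 0 to 0 or above.

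With the GC correction 6 ligands were called higher again, with *Ccl27a* in place of *Ccl28*, and 16.3% of all genes. After background subtraction 5 were called higher, the 6 without *Ccl28*, beside 16.2% of all genes, and after both steps the 6 were the same as with the GC correction alone, beside 11.3%. *Ccl2*, *Ccl6*, *Ccl8*, *Ccl9* and *Ccl24* were thus called with and without each step. The median over all genes shifted from 0.10 to 0.32 with upper-quartile factors and to 0.22 with unscaled totals, and the 6 called ligands were called under both, each time with 1 more, beside 23.9% and 24.4% of all genes. DESeq2 and limma likewise called these 6 and *Cxcl9*, beside 20.8% and 20.3%. With at least 10 counts in every sample 2 of 15 ligands were called, beside 15.4%, and with no filter 10 of 37, beside 22.6%.

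With 1 sample left out, the number of ligands called higher was 6, 4 and 7 without WT replicates 2, 4 and 5, beside 21.3%, 17.9% and 19.9% of all genes. It was 7, 6 and 6 without *Mmp13-/-* replicates 1, 2 and 6, beside 21.4%, 20% and 19.7%. *Ccl2*, *Ccl6*, *Ccl8* and *Ccl9* were called in all 6 of these fits.

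**Figure D4:**
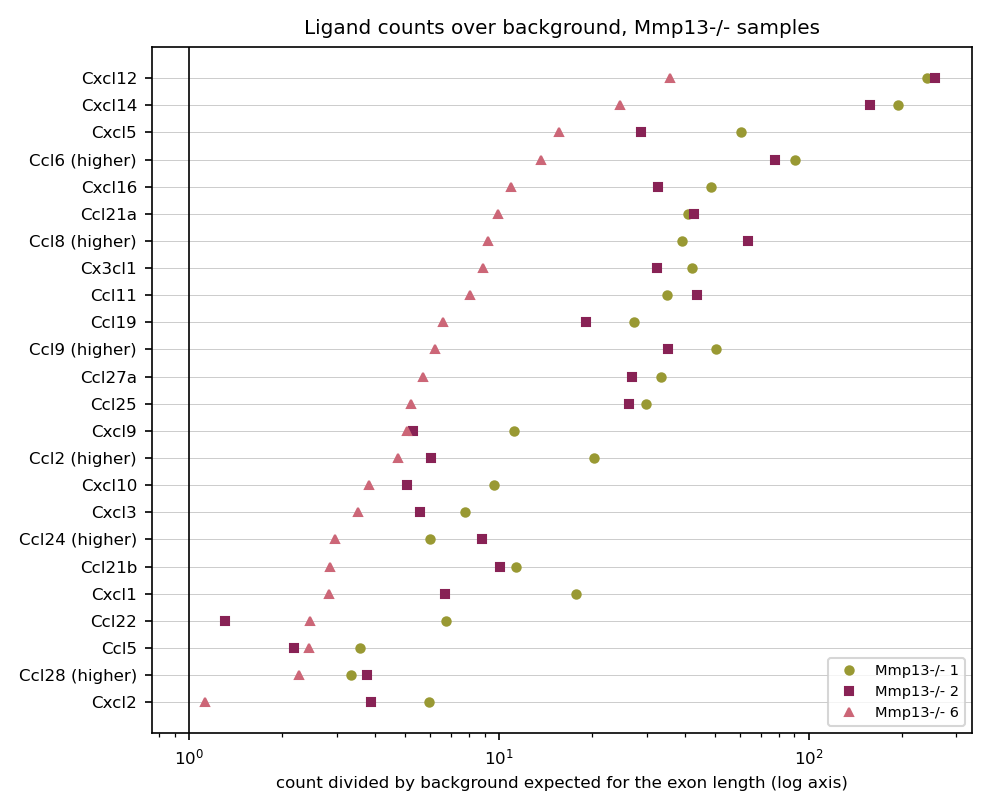
Counts of the 24 tested ligands in the 3 *Mmp13-/-* samples divided by the count expected from the background rate and the exon length, on a log axis, with a line at 1 where a count equals background. Sample 6 has the smallest ratio for most ligands, *Cxcl2* in sample 6 lies closest to the line, *Ccl28* lies between 2.26 and 3.76, and *Cxcl12* lies farthest.

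Levels were compared between ligands per kilobase of exon. In WT the order by mean CPM per kilobase began with *Cxcl12* at 12.3 ± 1.02 and *Cxcl14* at 11.7 ± 0.42, which overlapped between samples, followed by *Cx3cl1* at 3.75 ± 0.33 and *Ccl21a* at 3.74 ± 0.40, which overlapped as well (SD, n = 3 each). In *Mmp13-/-* samples *Cxcl12* at 12.1 ± 2.58 and *Cxcl14* at 8.46 ± 1.42 again led, and *Ccl6* took rank 3 at 4.22 ± 0.39, from rank 13 in WT, overlapping with *Cxcl5*. *Ccl8* took rank 5 at 2.72 ± 0.95, from rank 28. *Cxcl5*, *Ccl8*, *Cxcl16*, *Ccl21a*, *Ccl11* and *Cx3cl1*, at ranks 4 to 9, overlapped with their neighbours in that order.

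Summed over all 37, the ligands reached 167 to 189 CPM in WT pulp and 178 to 202 CPM in *Mmp13-/-* samples, which overlap. The CC ligands summed to 22.1 to 23.7 CPM and 39.9 to 45.7 CPM, without overlap, and the CXC ligands to 128 to 151 CPM and 125 to 153 CPM. No background was subtracted from any summed CPM in the text. *Mmp13-/-* sample 6, which had the highest background, also had the highest CC sum (45.7 CPM). *Ccl6* alone took 0.583% to 0.928% of ligand counts in WT pulp and 3.76% to 4.35% in *Mmp13-/-* samples.

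Receptors were read from a list of 18 conventional and 5 atypical chemokine receptors. Of the 20 tested, 7 were called higher, beside the same 20.4% of all genes, and 1 lower, beside 9.68%. *Ccr2*, the monocyte receptor of *Ccl2*, had normalised counts of 34.0, 18.8 and 46.2 in WT pulp and 481, 543 and 316 in *Mmp13-/-* samples (log2 fold change 3.77, SE 0.32, adjusted p = 5.5e-05). *Ccr1*, the receptor of *Ccl6* and *Ccl9*, had 20.8, 15.1 and 32.0 in WT pulp and 208, 373 and 191 in *Mmp13-/-* samples (3.51, SE 0.36, adjusted p = 0.000104). Neither overlapped between genotypes, and both were called in each alternative fit.

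*Ccr3*, the eotaxin receptor of eosinophils, had 1.97, 3.76 and 22 in WT pulp and 52.2, 108 and 44.4 in *Mmp13-/-* samples (2.90, SE 0.72, adjusted p = 0.0077), and the adjusted p was 0.0738 after the GC correction. *Ccr6* rose by 3.43 (SE 0.75, adjusted p = 0.0038) as a log2 fold change, but its counts in *Mmp13-/-* samples were 2.90, 4.51 and 1.12 times the background, and after background subtraction it had too few counts to test. *Cxcr2* on neutrophils rose by 1.28 (SE 0.27, adjusted p = 0.0033) and *Cxcr4* by 1.58 (SE 0.30, adjusted p = 0.00205), also as log2 fold changes. *Ccr10*, the receptor of *Ccl27a* and *Ccl28*, fell from 86.4, 119 and 136 in WT to 50.3, 39.2 and 66.4 in *Mmp13-/-* samples (-1.14, SE 0.28, adjusted p = 0.0075), and the change was -0.20 after the GC correction (adjusted p = 0.620).

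Seen as pairs, *Ccl2* with *Ccr2*, *Ccl6* and *Ccl9* with *Ccr1*, and *Ccl24* with *Ccr3* were each called higher on both sides. *Ccl28* was called higher and *Ccr10* lower. After the GC correction *Ccl28*, *Ccr10* and *Ccr3* were not called. *Cx3cr1*, the receptor of *Cx3cl1*, had 312, 253 and 219 in WT pulp and 232, 302 and 263 in *Mmp13-/-* samples (0.03, SE 0.19, adjusted p = 0.921), which overlap. *Cxcr4* was higher while *Cxcl12* was not. *Ccr7*, the receptor of *Ccl19* and *Ccl21a*, had a log2 fold change of 1.40 (SE 0.59, adjusted p = 0.0703). It passed after the GC correction (2.04, adjusted p = 0.0395) but not after the GC correction and background subtraction together (1.79, adjusted p = 0.0558).

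Among the atypical receptors, which clear ligands without signalling, none was called over 2-fold, beside 20.4% of all genes called higher and 9.68% lower. *Ackr4*, which removes *Ccl19*, *Ccl21a* and *Ccl25* products, was higher at any fold, with 363, 244 and 245 in WT pulp and 458, 571 and 462 in *Mmp13-/-* samples (0.81, SE 0.19, adjusted p = 0.0061), as was *Ackr3*, which removes *Cxcl12* (0.45, SE 0.15, adjusted p = 0.0309), though not by limma (adjusted p = 0.0802) or in 5 of the 6 fits with 1 sample left out (0.0693 to 0.252).

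Other genes of the pathway were read from lists, with calls to be read beside the 20.4% of all genes called higher and 9.68% called lower. Of 12 cytokines that induce chemokines, 4 had enough counts to test, and *Il1b* (log2 fold change 1.39, SE 0.30, adjusted p = 0.0035) and *Il1a* (1.17, SE 0.35, adjusted p = 0.0172) were called higher, while *Tnf* (1.001, SE 0.59, adjusted p = 0.183) and *Ltb* were not. *Ifng*, which induces *Cxcl9* and *Cxcl10*, was at 0 in WT pulp and reached 0.888 to 10.7 normalised counts in *Mmp13-/-* samples. After the GC correction *Il1a* was no longer called (adjusted p = 0.222).

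Of 12 NF-kB pathway genes tested none was called higher, beside 20.4% of all genes. Those called lower, beside 9.68% of all genes, were *Nfkb2* (-1.04, SE 0.15, adjusted p = 0.000504) and *Nfkbib* (-1.05, SE 0.16, adjusted p = 0.000618), with changes of -0.03 and -0.09 after the GC correction. Of 8 enzymes that cut or shed chemokines *Mmp8* of neutrophils (2.92, SE 0.20, adjusted p = 2.1e-05) and *Dpp4* (1.26, SE 0.40, adjusted p = 0.0251) were called higher and *Mmp14* (-1.23, SE 0.19, adjusted p = 0.000643) lower, beside the same shares of all genes. After the GC correction *Dpp4* was not called (0.75, adjusted p = 0.172) and *Mmp14* was at -0.58 (adjusted p = 0.0114). *Adam10*, a sheddase of *Cx3cl1* and *Cxcl16* products, was higher at any fold (0.92, SE 0.17, adjusted p = 0.0019).

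**Figure D5:**
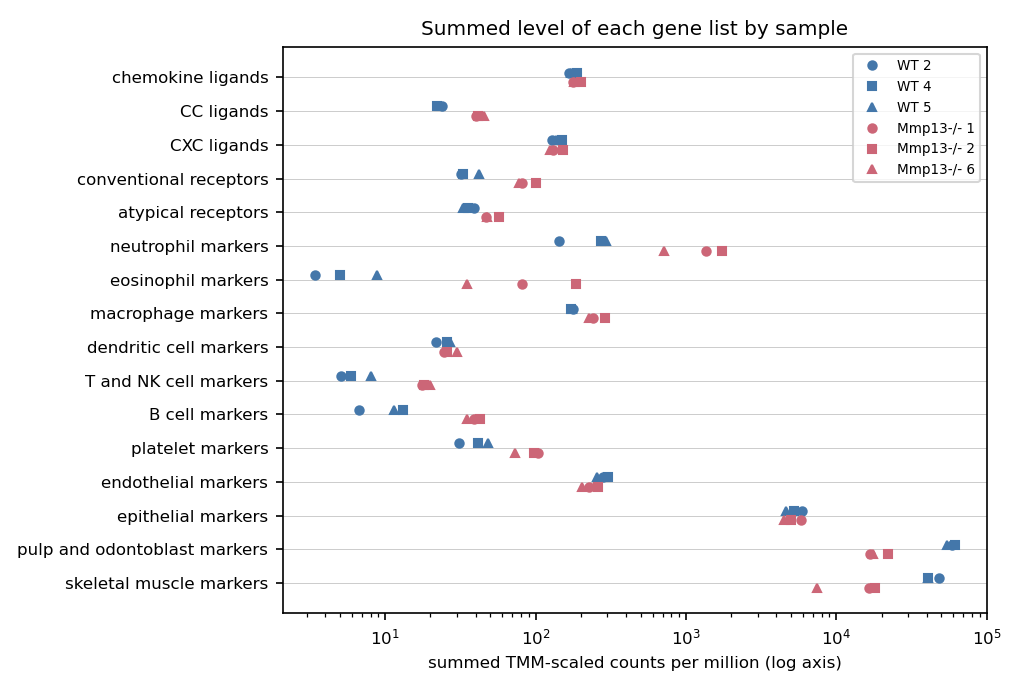
Summed CPM of the ligands, their receptors and marker lists of the cell types pulp can hold, on a log axis, with 3 WT samples in blue and 3 *Mmp13-/-* samples in red. Neutrophil, eosinophil, T and NK cell, B cell and platelet markers are higher in every *Mmp13-/-* sample, skeletal muscle and pulp markers are lower, and dendritic cell markers overlap.

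Summed markers of several blood and marrow cell types were also higher in *Mmp13-/-* pulp, and their calls are to be read beside the 20.4% of all genes called higher and 9.68% called lower. Among the *Mmp13-/-* samples, sample 6 had the lowest neutrophil and eosinophil sums. That sample had the highest normalised counts of *Ccl2*, *Ccl24* and *Ccl28* and the lowest of *Ccl6* and *Ccl9*, with *Ccl8* in between. Summed neutrophil markers rose from 142 to 292 CPM in WT to 714 to 1748 CPM in *Mmp13-/-* samples, with 9 of 10 called higher. Eosinophil markers went from 3.41 to 8.87 CPM to 35.2 to 186 CPM, with 6 of 6 called, B cell markers from 6.70 to 13.2 CPM to 35.0 to 42.9 CPM, with 7 of 7 called, and platelet markers, *Pf4* and *Ppbp* among them, from 30.95 to 47.9 CPM to 72.5 to 103 CPM, with 4 of 6 called.

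Macrophage markers went from 173 to 179 CPM to 226 to 290 CPM, with 4 of 10 called, T and NK cell markers from 5.12 to 8.001 CPM to 17.7 to 19.8 CPM, with 7 of 10 called but 3 of 7 after background subtraction and 4 of 7 after both steps, and dendritic cell markers from 21.8 to 27.1 CPM to 24.5 to 30.1 CPM, with 3 of 7 called. Endothelial markers, at 257 to 304 CPM and 205 to 260 CPM, had 1 of 9 called higher, and epithelial markers, at 4619 to 5911 CPM and 4487 to 5834 CPM, 2 of 7 called lower. Pulp and odontoblast markers, at 54830 to 61550 CPM and 16630 to 22110 CPM, had 2 of 10 called higher, 3 called lower and 6 lower at any fold. After the GC correction 10 of 10 neutrophil, 5 of 6 eosinophil, 7 of 7 B cell and 5 of 6 platelet markers were called higher. So were 7 of 10 macrophage, 5 of 10 T and NK cell and 4 of 7 dendritic cell markers, beside 16.3% of all genes. Endothelial markers then had 0 called higher and epithelial markers 0 called lower. Pulp and odontoblast markers had 1 called higher and 1 lower, beside 2.98% of all genes called lower. No listed marker was at 0 in all 6 samples, *Cxcr2*, *Ccr3*, *Ccr7* and *Xcr1* stand in both the receptor and the marker lists, and the part of these cell types in the ligand results was not tested.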

How the data were processed

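RNA sequencing measured dental pulp of 3 WT and 3 *Mmp13-/-* mice (6 samples, aged 3 months), grouped by the genotype in their labels. The deposited table holds estimated counts for 53342 genes, made by the authors in Strand NGS from paired-end reads, with fractions where reads were shared, and log2 values that the authors made from those counts with size factors and centred per gene. The submitters' processing notes name mm10 and DESeq, and the aligner's settings and annotation release are not given in the sources used here.

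After rounding, counts were fitted with edgeR 4.0.16 under R 4.3.3. Scaling was by TMM, genes with low counts were filtered per genotype with the default of edgeR, no covariate was used, and p-values of the quasi-likelihood test were Benjamini-Hochberg adjusted over 24534 genes. A gene was called at an adjusted p under 0.05 and a change over 2-fold. Standard errors are approximate, as the absolute log2 fold change divided by the square root of the F statistic of that test. Alternatives were RLE and upper-quartile factors, unscaled totals, a stricter filter (10 counts or more in each sample) or none, the tests of DESeq2 1.42.0 and of limma 3.58.1 (the latter on the log2 values as deposited), omission of each sample, a GC correction (loess of log2 CPM deviation on GC content) and subtraction of background. Scripts were tested on simulated data. Exon lengths, GC content and positions came from the GENCODE M21 annotation of GRCm38, which matched 99.8% of genes, and promoters from RefSeq.

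Ligands not tested are given as estimated counts, and a library at 0 was set against a floor of 3 counts. Ranges of total counts set the precision, and intervals and floors cover counting error only. With 3 samples a genotype, a permutation test cannot go below 0.10, so none was used. Every ligand was named, and other genes only from the lists. The ligand set and all lists were chosen with earlier results of these data known. A result on 1 listed gene is not reported here.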

Additional observations from a re-analysis of the deposited data

How the results depend on the processing

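No paired analysis was possible because the genotypes share only 1 replicate number, 2. Leaving out 1 sample at a time gave 4 to 7 ligands called higher, with 4 without WT replicate 4, when *Ccl24* and *Ccl28* were lost, and 0 to 1 called lower, the 1 being *Cxcl1* without WT replicate 2. With at least 10 counts in every sample 2 ligands of 15 tested were called higher (*Ccl6* and *Ccl9*), since the other called ligands did not pass this filter, and without a filter 10 of 37. Genes called over 2-fold numbered 7381 in the fit reported, 4666 with at least 10 counts, 14325 without a filter, 4735 after the GC correction and 3492 after the GC correction and background subtraction. Higher calls made up 67.8% of these and 81.4% with upper-quartile factors, 77.2% unscaled, 78.6% without a filter and 84.5% after the GC correction. Receptors called higher fell from 7 to 4 after both steps, beside 20.4% and 11.3% of all genes. *Ccr10*, the 1 receptor called lower (beside 9.68% of all genes), gave 0 under both steps, under the GC correction alone and with upper-quartile factors.

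Signs turned for ligands that were not called over 2-fold. After the GC correction log2 fold changes were 0.13 for *Ccl21a*, -0.65 for *Ccl25*, 0.27 for *Ccl5*, 0.044 for *Cx3cl1*, 0.33 for *Cxcl12*, 0.27 for *Cxcl14*, -0.10 for *Cxcl2* and -0.22 for *Cxcl5*. After both steps they were 0.10 for *Ccl21a*, -0.73 for *Ccl25*, 0.001 for *Cx3cl1*, 0.36 for *Cxcl12*, 0.29 for *Cxcl14*, -0.999 for *Cxcl2*, -0.14 for *Cxcl3* and -0.23 for *Cxcl5*, and after background subtraction alone 0.13 for *Cxcl12* and -0.63 for *Cxcl2*. *Cxcl12* was 0.18 with upper-quartile factors, 0.12 unscaled and 0.11 with at least 10 counts. *Cxcl16* was -0.079 and *Cxcl2* -0.004 without a filter, and *Cxcl16* was -0.028 by limma. With 1 sample left out the changes ran from -0.24 to 0.78 for *Ccl19*, -1.24 to 0.033 for *Ccl5*, -0.25 to 0.11 for *Cxcl12*, -0.15 to 0.12 for *Cxcl16*, -0.11 to 0.25 for *Cxcl2* and -0.053 to 1.39 for *Cxcl3*. Over all settings 36 values turned sign, 303 kept sign and side of the threshold, 19 came to pass it and 15 no longer did. The causes were not tested.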
